A study of Homo sapiens with 12 samples.

Results

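BIRC3 and 9 other genes of the NF-kappaB feedback circuit (BIRC2, TNFAIP3, NFKBIA, NFKBIZ, RELB, NFKB1, NFKB2, TNFAIP2 and ICAM1) were followed in RNA-Seq of serum-starved colorectal carcinoma cells. The 10 genes were chosen by symbol from a table of 19901 protein-coding genes. All 10 were found once in the table, and all 10 were among the 13093 genes with enough reads to be tested. The list was drawn up with earlier results of these libraries known, and BIRC3 heads it because of its values after dTAG treatment. The differences between dTAG and DMSO are therefore given for the 10 genes as a description, and tests are given for the serum comparisons and for the interaction. The serum comparisons use the same libraries, and the interaction is the dTAG difference with serum less that without. These tests were therefore not shown to be independent of how the genes were chosen.

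HCT116 is a human colorectal carcinoma line, and 1 clone of it was used throughout. Its KAP1 protein (encoded by TRIM28) carried a degradation tag, and the DMSO-treated controls carried the tag as well. dTAG is a small molecule that recruits the tagged protein to a ubiquitin ligase, and DMSO is its solvent. All cells were starved of serum for 48 h and given dTAG or DMSO for 8 h, and serum was then added for 30 min or left out. The 12 libraries fall into 4 groups of 3: DMSO-S0 (solvent, no serum), DMSO-S30 (solvent, serum), dTAG-S0 (dTAG, no serum) and dTAG-S30 (dTAG, serum).

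NF-kappaB is a family of dimeric transcription factors held in the cytoplasm by inhibitors such as IkappaB-alpha. Signals from cytokine receptors activate kinases that lead to destruction of the inhibitor, and the freed dimers switch on genes that include their own inhibitors and subunits. A slower branch runs through the kinase NIK, which is kept low by a complex of TRAF adaptors with the ligases encoded by BIRC2 and BIRC3. In colorectal epithelium the pathway is known for its part in inflammation and in survival of tumour cells.

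DNA that NF-kappaB dimers bind has a common pattern, the kappaB motif, searched here as GGGNNNNNCC with a purine at the fourth base and pyrimidines at the seventh and eighth, on both strands and with overlapping matches kept. The search covered the 250 bases before the RefSeq start of each gene (build GRCh38.p14). Promoters of 9 of the 10 genes were in the table, all but RELB. Of these 9, 5 held a match: BIRC3 and TNFAIP3 held 2 each, and NFKB1, NFKBIA and NFKBIZ held 1 each. None was found with these letters in the windows of NFKB2, BIRC2, ICAM1 and TNFAIP2. A match was present in 9.96% of all 35116 promoters in the table and in 1682 of the 15297 that belong to genes of the count table, and 1.94% of the latter held 2 or more. Among the 66 promoters of other pathway genes, 16 (24.2%) held a match. Each matched stretch follows, 5′ to 3′ on the gene's own strand with 10 bases on either side, because it shows the letters shared by BIRC3 and its neighbours in the circuit. Capitals mark the match.
BIRC3, chr11:102317275-102317304, plus strand, match starting 199 bases before the start: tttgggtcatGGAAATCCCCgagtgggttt
BIRC3, chr11:102317339-102317368, plus strand, match starting 135 bases before the start: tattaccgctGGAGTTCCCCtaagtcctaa
TNFAIP3, chr6:137867182-137867211, plus strand, match starting 67 bases before the start: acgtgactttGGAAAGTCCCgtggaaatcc
TNFAIP3, chr6:137867194-137867223, plus strand, match starting 55 bases before the start: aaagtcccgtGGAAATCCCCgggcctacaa
NFKBIA, chr14:35404811-35404840, minus strand, match starting 81 bases before the start: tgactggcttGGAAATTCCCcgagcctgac
NFKB1, chr4:102501300-102501329, plus strand, match starting 49 bases before the start: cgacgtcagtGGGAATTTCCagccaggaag
NFKBIZ, chr3:101827757-101827786, plus strand, match starting 223 bases before the start: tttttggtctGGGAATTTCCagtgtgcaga
In BIRC3, TNFAIP3 and NFKBIA the motif reads on the opposite strand, so the capitals are its reverse complement. NFKB1, NFKBIA and NFKBIZ carried the same 10 letters, GGGAATTTCC, when read in the direction of the motif, and the distal BIRC3 match and 1 TNFAIP3 match shared GGGGATTTCC. The gene model of the count table starts before the RefSeq start for TNFAIP3, NFKB1, BIRC3, BIRC2, TNFAIP2 and ICAM1. The 2 TNFAIP3 matches lie within its model, as does the whole window of ICAM1. The matches of the other genes lie before their models. These matches describe the sequence and are not measured binding sites.

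The libraries held 20537682 to 26278707 counts, of which ERCC spike-in transcripts made up 7.97 to 9.37%. TRIM28 was at 96.9 ± 4.74 normalised CPM (read counts brought to a scaled library of 1000000, mean ± SD, n = 3 here and throughout) in DMSO-S0 and 92.6 ± 6.27 in dTAG-S0; the tag removes protein and not transcript, so these levels do not check the depletion. FOS, an immediate early gene, was 89.2-fold higher after serum in DMSO-treated cells and 79.3-fold higher in dTAG-treated cells. Of 6 colorectal epithelial markers, EPCAM, CDH1, KRT8, KRT18 and CDX2 were at 11.5 CPM or more in every library, and VIL1 had at most 7 counts. Of the blood markers, PTPRC was at 0.386 to 1.54 CPM, CD68 at 3.13 to 4.67 CPM, and CD3E had at most 7 counts. The 4 endothelial and fibroblast markers summed to 13.6 to 17.5 CPM without serum and 67 to 87.5 CPM with serum, and nearly all of this was COL1A1, since the other 3 summed to 1.34 to 2.71 CPM in all groups. The part of these levels in the serum results was not tested. The libraries of a group are biological replicates according to the study's methods. No pair of them agreed within sampling noise. In bulk RNA, fewer expressing cells and less RNA per cell cannot be told apart.

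**Figure D1:**
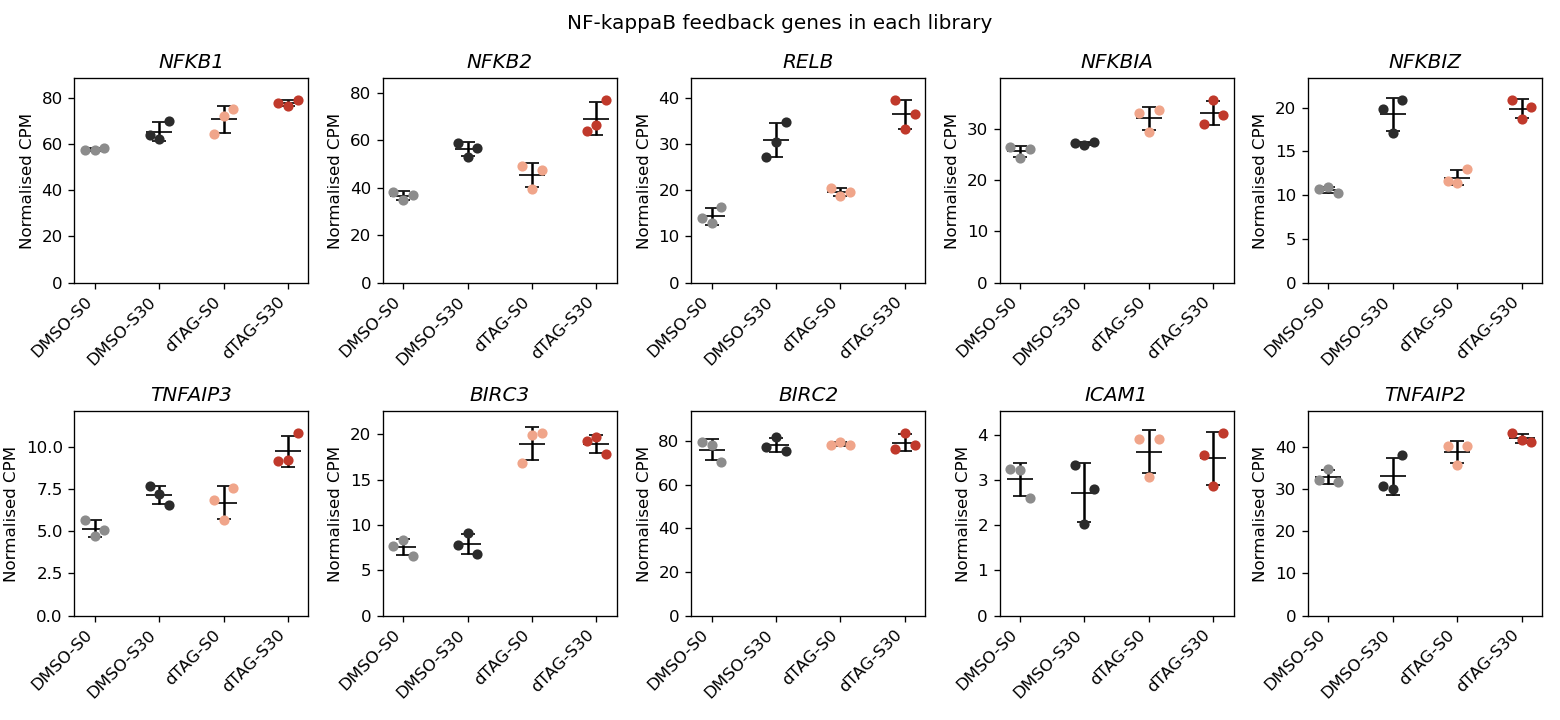
Normalised CPM (vertical axes, each from 0) of the 10 genes in the 12 libraries, by group; points are libraries, and the horizontal bar and whiskers give the mean ± SD of 3. BIRC3 sits between 6.57 and 9.08 CPM in the 6 DMSO libraries and between 16.8 and 20.1 CPM in the 6 dTAG libraries, whereas RELB, NFKB2 and NFKBIZ separate mainly by serum.

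Levels per kb of gene, introns included, depend on gene length, which is 3.24 kb for NFKBIA and 116 kb for NFKB1. Undivided, NFKBIA had a mean of 25.6 CPM and NFKB1 of 57.7 CPM in DMSO-S0. Per kb, NFKBIA had the highest level of the 10 in every group, from 7.89 ± 0.339 CPM per kb in DMSO-S0 to 10.2 ± 0.713 in dTAG-S30. NFKB2 was the second in every group, and ICAM1 the lowest, at 0.172 to 0.230 CPM per kb. BIRC2 and TNFAIP2 came next, at 2.35 to 3.01 CPM per kb, and their libraries overlapped in both DMSO groups. BIRC3 changed its place most, which is a description because its dTAG values chose it. It stood among RELB, NFKBIZ and TNFAIP3 in DMSO-S0 at 0.343 ± 0.0399 CPM per kb. In DMSO-S30 its mean was above only that of ICAM1, at 0.360 ± 0.0517, and its libraries overlapped those of TNFAIP3. In dTAG-S0 it stood next below BIRC2 at 0.864 ± 0.0843 CPM per kb, above all libraries of NFKB1, and in dTAG-S30 between RELB and NFKB1 at 0.862 ± 0.0469. In DMSO-S0 the levels per kb of RELB and BIRC3, of BIRC3 and NFKBIZ, and of NFKBIZ and TNFAIP3 overlapped.

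Whether serum alone moved the circuit was asked in the DMSO-treated cells. Serum raised 5 of the 10 genes within 30 min: RELB, NFKBIZ, NFKB2, TNFAIP3 and NFKB1. They span the subunits, a nuclear regulator and a ubiquitin editor, and their increases ran from 1.14-fold (NFKB1) to 2.14-fold (RELB). None of the 10 fell at an adjusted p under 0.05. BIRC3, BIRC2, ICAM1, TNFAIP2 and NFKBIA did not pass the test. Over all 13093 genes, 9.15% rose by the same rule and 17.0% fell, and the median log2 fold change was -0.07 against 0.14 for the 10 genes. Groups that did not overlap, with all 3 serum libraries higher, were seen for 6 of the 10 genes (the 5 above and NFKBIA) and for 13.8% of all genes. Higher calls made up 35.0% of all calls here, but 59.8% under TMM scaling, 60.3% in DESeq2 and 66.5% with library sizes taken from the spike-ins.

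Among the subunits, RELB, the transactivating partner of the NIK branch, was at 13.9, 12.8 and 16.3 CPM in DMSO-S0 and at 27.2, 30.5 and 34.7 CPM in DMSO-S30. All 3 serum libraries lay above all 3 libraries without serum. The log2 fold change was 1.09 (SE 0.103, edgeR quasi-likelihood test, Benjamini-Hochberg adjusted p = 3.82e-09). NFKB2 encodes the precursor p100, which inhibits RELB dimers until it is processed. It was at 38.3, 34.7 and 37.1 CPM in DMSO-S0 and at 58.9, 53.0 and 56.6 CPM in DMSO-S30, without overlap. Its log2 fold change was 0.63 (SE 0.0859, adjusted p = 2.95e-06). NFKB1, which encodes the p105 precursor of the classical subunit, was at 57.4, 57.3 and 58.4 CPM in DMSO-S0 and at 64.0, 62.0 and 70.1 CPM in DMSO-S30. The groups did not overlap, but the increase was small, at log2 0.19 (SE 0.0679, adjusted p = 0.0415). This call for NFKB1 was lost with spike-in library sizes (adjusted p = 0.0682), without DMSO-S0 replicate 1 (adjusted p = 0.0731), 2 (0.0763) or 3 (0.0627) and without DMSO-S30 replicate 3 (0.222).

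NFKBIZ encodes the nuclear regulator IkappaB-zeta, which helps NF-kappaB dimers switch on a second set of genes. It was at 10.7, 10.9 and 10.3 CPM in DMSO-S0 and at 19.8, 17.1 and 20.8 CPM in DMSO-S30, well apart. Its log2 fold change was 0.85 (SE 0.102, adjusted p = 3.54e-07). NFKBIA, which encodes the inhibitor IkappaB-alpha, ranged from 24.3 to 26.3 CPM in DMSO-S0 and from 26.7 to 27.4 CPM in DMSO-S30. Its libraries did not overlap, yet its log2 fold change of 0.10 (95% interval -0.07 to 0.26) did not pass the test (adjusted p = 0.399). NFKBIZ and the gene NXPE3 overlap on the same strand by 15753 bases in GENCODE v44, so the count of NFKBIZ may hold reads of both.

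Of the ubiquitin editors and ligases, TNFAIP3 encodes A20, which removes ubiquitin chains from signalling adaptors and ends the response. It was at 5.67, 4.72 and 5.05 CPM in DMSO-S0 and at 7.66, 7.18 and 6.57 CPM in DMSO-S30, without overlap. The log2 fold change was 0.50 (SE 0.144, adjusted p = 0.0108). BIRC3, which encodes the ligase cIAP2, was at 7.69, 8.30 and 6.57 CPM in DMSO-S0 and at 7.80, 9.08 and 6.81 CPM in DMSO-S30. The groups overlapped, and the log2 fold change was 0.09 (95% interval -0.18 to 0.36, adjusted p = 0.641). BIRC2, its paralog encoding cIAP1, ranged from 70.5 to 79.3 CPM and from 75.5 to 81.9 CPM in the same groups, at a log2 fold change of 0.06 (95% interval -0.06 to 0.19, adjusted p = 0.468). The interval for BIRC3 leaves out an increase of more than 1.29-fold.

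The other target genes were flat or too thinly covered to tell. ICAM1, an adhesion receptor for leukocytes, ranged from 2.60 to 3.23 CPM in DMSO-S0 and from 2.03 to 3.34 CPM in DMSO-S30. It had 46 to 94 counts per library, and its log2 fold change of -0.17 had a 95% interval of -0.61 to 0.27 (adjusted p = 0.604). TNFAIP2, a TNF-induced gene linked to membrane protrusions, ranged from 31.8 to 34.7 CPM and from 30.2 to 38.1 CPM, at a log2 fold change of 0.00 (95% interval -0.18 to 0.18, adjusted p = 0.995). That value changed sign under several settings of the processing. ICAM1 overlaps a pair of antisense transcripts in GENCODE v44, and BIRC3 and TNFAIP3 1 each. The overlaps are 14274 and 815 bases for ICAM1, 11137 for BIRC3 and 1046 for TNFAIP3. Whether reads were assigned by strand is not given in the sources used here.

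The same question was asked in the dTAG-treated cells, which share no library with the DMSO comparison. Serum raised 4 of the 10 genes, RELB, NFKBIZ, NFKB2 and TNFAIP3, against 9.04% of all genes, and none fell. The median log2 fold change was 0.13 for the 10 genes and -0.06 for all genes. Libraries did not overlap, with serum higher, for 6 of the 10 (these 4, NFKB1 and TNFAIP2) and for 12.6% of all genes. Of all calls in this comparison 37.2% were higher, but 61.6% under TMM scaling, 60.2% in DESeq2 and 62.5% with spike-in library sizes.

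RELB was at 20.5, 18.7 and 19.5 CPM in dTAG-S0 and at 39.4, 33.3 and 36.4 CPM in dTAG-S30, with a log2 change of 0.90 (SE 0.096, adjusted p = 4.44e-08). NFKBIZ was at 11.7, 11.4 and 12.9 CPM without serum and at 20.8, 18.7 and 20.03 CPM with it, with a log2 change of 0.73 (SE 0.0966, adjusted p = 1.80e-06). NFKBIZ thus came to levels near its DMSO-S30 range, and its dTAG-S30 libraries overlapped those of DMSO-S30. For RELB only the dTAG-S30 library at 33.3 CPM overlapped DMSO-S30. Those at 39.4 and 36.4 CPM lay above the highest DMSO-S30 library, at 34.7 CPM. NFKB2 was at 49.0, 39.4 and 47.6 CPM without serum and at 63.7, 66.5 and 76.9 CPM with it, a log2 fold change of 0.60 (SE 0.0814, adjusted p = 2.89e-06). TNFAIP3 was at 6.86, 5.63 and 7.54 CPM without serum and at 9.16, 9.21 and 10.8 CPM with it, a log2 fold change of 0.52 (SE 0.129, adjusted p = 0.00406). For these genes the dTAG-S30 libraries stood above every library of the other 3 groups.

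NFKB1 was at 64.3, 72.3 and 75.2 CPM in dTAG-S0 and at 77.6, 76.6 and 78.9 CPM in dTAG-S30. The libraries did not overlap, but the log2 fold change of 0.13 did not pass the test (95% interval 0.00 to 0.27, adjusted p = 0.145). It passed under TMM scaling (adjusted p = 0.0192), in DESeq2 (0.0440), without the count filter (0.0451) and without dTAG-S0 replicate 3 (0.0463). BIRC3 was at 16.8, 19.96 and 20.1 CPM in dTAG-S0 and at 19.3, 19.7 and 17.8 CPM in dTAG-S30, with a log2 fold change of -0.02 (95% interval -0.23 to 0.20, adjusted p = 0.923). Serum did not move BIRC3 detectably at either level, and the sign of this value depends on the scaling. NFKBIA (0.04), BIRC2 (0.00), ICAM1 (-0.05) and TNFAIP2 (0.12) gave log2 fold changes at adjusted p from 0.289 to 0.987, and the signs for BIRC2 and ICAM1 also depend on the scaling.

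**Figure D2:**
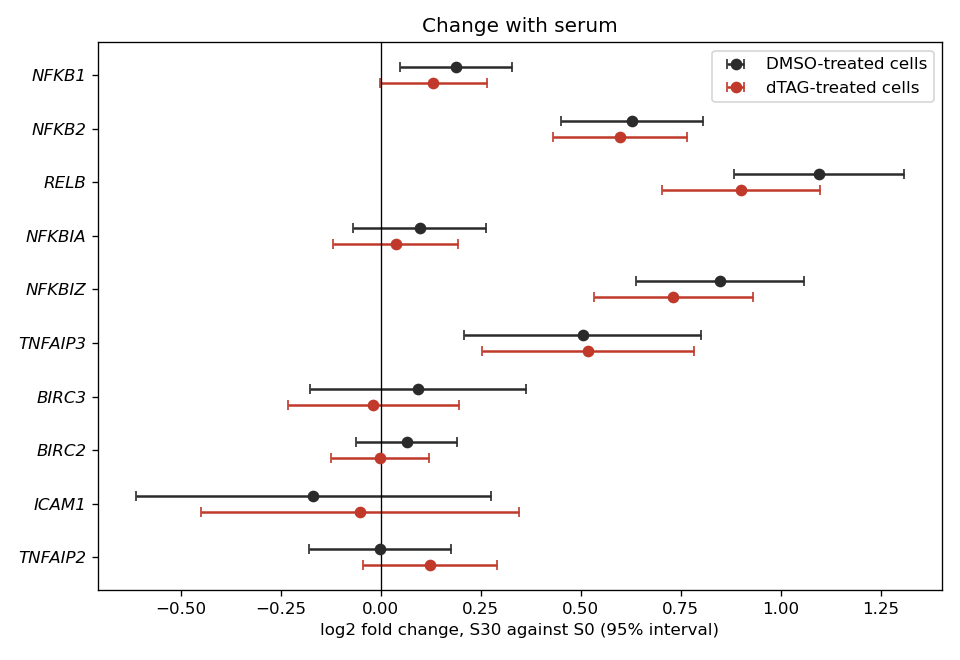
Change with serum, as log2 fold change of S30 against S0 (horizontal axis) with 95% intervals, for each of the 10 genes under DMSO and under dTAG. RELB, NFKBIZ, NFKB2 and TNFAIP3 lie above 0 in both, and the intervals of BIRC3, BIRC2, ICAM1, TNFAIP2 and NFKBIA cross 0 in both.

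The interaction tests whether the serum change itself differed between dTAG and DMSO. It was called for 0 of the 10 genes by edgeR's quasi-likelihood test, 0 at an unadjusted p under 0.05, and 0 by DESeq2, against 0.0382% of all genes (5 genes, all with a negative interaction term). The largest difference among the 10 was that of RELB, at log2 -0.19 (95% interval -0.49 to 0.10). For NFKBIZ it was -0.12 (95% interval -0.41 to 0.18) and for NFKB2 -0.03 (95% interval -0.28 to 0.22). BIRC3 had a difference of -0.11 (95% interval -0.46 to 0.24) and TNFAIP3 of 0.01 (95% interval -0.40 to 0.43). These intervals leave room for a serum response of RELB after dTAG between 0.711 and 1.07 times that in DMSO, so equal responses were not shown. The widest interval was that of ICAM1, from -0.49 to 0.73.

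The level after dTAG, compared with DMSO, is the measure that put BIRC3 on the list. Without serum, BIRC3 stood at 7.52 ± 0.876 CPM in DMSO and 18.97 ± 1.85 CPM in dTAG, 2.55-fold higher (95% interval 2.16 to 3.01). With serum it stood at 7.90 ± 1.14 CPM and 18.93 ± 1.03 CPM, 2.36-fold higher (95% interval 1.99 to 2.79). The lowest dTAG library, at 16.8 CPM, was far above the highest DMSO library, at 9.08 CPM. BIRC2, which lies 7807 bases from BIRC3 on chromosome 11 on the same strand, had overlapping libraries in all 4 groups, from 70.5 to 83.5 CPM. Its fold against DMSO was 1.04 (95% interval 0.958 to 1.14) without serum and 0.997 (95% interval 0.914 to 1.09) with serum, and the sign of the last value depends on the scaling.

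Other members stood between these extremes. Without serum, TNFAIP3 differed by log2 0.40 (95% interval 0.11 to 0.69), RELB by 0.44 (0.23 to 0.66), NFKBIA by 0.33 (0.17 to 0.49), NFKB2 by 0.31 (0.14 to 0.49) and NFKB1 by 0.30 (0.16 to 0.43). With serum the same genes differed by 0.41, 0.25, 0.27, 0.29 and 0.24. TNFAIP2 differed by 0.23 without and 0.36 with serum, ICAM1 by 0.26 and 0.38, and NFKBIZ by 0.17 and 0.06. NFKBIA showed this in its libraries, which ranged from 24.3 to 27.4 CPM over both DMSO groups and from 29.4 to 35.5 CPM over both dTAG groups. NFKB2 was the gene whose 4 groups all stood apart, in the order dTAG-S30, DMSO-S30, dTAG-S0 and DMSO-S0.

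By the threshold used for all genes, 4 of the 10 genes (BIRC3, NFKB1, NFKBIA and RELB) were higher in dTAG-S0 than in DMSO-S0, where 0.848% of all genes were higher. With serum, BIRC3 and TNFAIP2 were higher, 2 of 10, where 0.588% of all genes were. The dTAG libraries lay wholly above the DMSO libraries for 7 of the 10 genes without serum and 6 with serum, against 8.50% and 7.62% of all genes. The median log2 difference of the 10 was 0.31 and 0.28, and that of all genes -0.01 and 0.00. Nothing is read from these counts, because the members were chosen with these differences known. The count of 4 became 1 (BIRC3) with spike-in library sizes and without dTAG-S0 replicate 3, and 2 without DMSO-S0 replicate 2. In either direction, 1.28% of all genes were called in the main fit, and 0.58%, 0.851% and 1.23% in these fits in turn. The count of 2 became 1 without DMSO-S30 replicate 2 and likewise without dTAG-S30 replicate 2. It became 4 without DMSO-S0 replicate 1 and 5 under TMM scaling. The share of all genes called in either direction was 1.21% in the main fit, and 0.728%, 0.951%, 1.97% and 1.77% in these fits in turn.

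**Figure D3:**
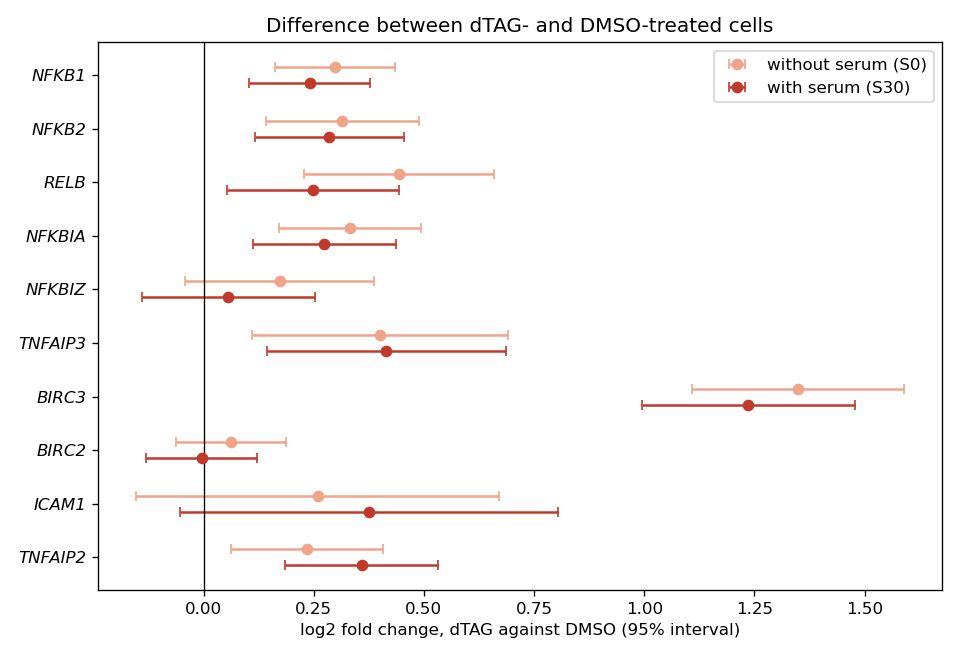
Difference between dTAG- and DMSO-treated cells, as log2 fold change of dTAG against DMSO (horizontal axis) with 95% intervals, without serum (S0) and with serum (S30). BIRC3 lies at 1.35 and 1.24, the other 9 genes lie between 0.00 and 0.44, and BIRC2 lies at 0.06 and 0.00.

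The genes whose pattern was most like that of BIRC3 over the 12 libraries were MSMO1 (Pearson r = 0.989, Spearman rho = 0.937), ACAT2 (r = 0.977, rho = 0.853), ACSS2 (r = 0.957, rho = 0.685), P4HA1 (r = 0.954, rho = 0.895) and DHCR7 (r = 0.950, rho = 0.776). The 12 points fall into 4 groups, with the dTAG libraries of all 6 genes apart from the DMSO libraries, and the genes share library sizes and the spike-in factor. MSMO1 and DHCR7 encode enzymes of cholesterol synthesis, ACAT2 a thiolase that joins acetyl-CoA units, ACSS2 an acetyl-CoA synthetase, and P4HA1 a collagen prolyl hydroxylase. MSMO1 ranged from 123 to 138 CPM over both DMSO groups and from 176 to 197 CPM over both dTAG groups. The differences after dTAG without serum were log2 0.56 for MSMO1, 0.59 for ACAT2, 0.76 for ACSS2, 0.29 for P4HA1 and 0.68 for DHCR7, each smaller than the 1.35 of BIRC3. Of the other members, NFKBIA (r = 0.868) ranked 46 of 13092 genes by this measure, NFKB1 (r = 0.788) 129 and TNFAIP2 (r = 0.769) 157. TNFAIP3 was at r = 0.582, ICAM1 at 0.518, BIRC2 at 0.414, NFKB2 at 0.404, RELB at 0.313 and NFKBIZ at 0.150. BIRC3 differed over the 12 libraries mainly between dTAG and DMSO, so these values largely restate the difference after dTAG. The members were chosen with that difference known, and nothing is read from their ranks.

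**Figure D4:**
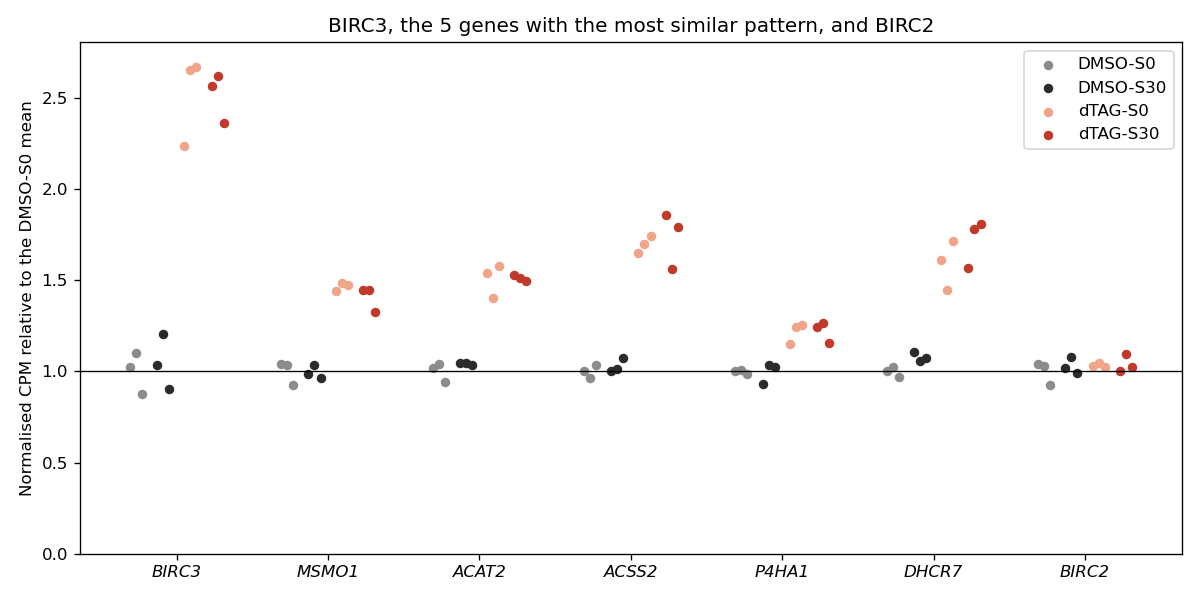
Normalised CPM of BIRC3, the 5 genes with the highest Pearson r to it and BIRC2, relative to each gene's DMSO-S0 mean (vertical axis from 0); each point is 1 library, coloured by group. The 6 dTAG libraries of BIRC3 lie above all its DMSO libraries, as do those of the 5 genes by smaller factors, and those of BIRC2 overlap.

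The rest of the pathway was read from a list of 79 genes in 5 roles, of which 64 were tested. In DMSO-treated cells 19 of the 64 rose with serum and 9 fell, and in dTAG-treated cells 18 rose and 10 fell. Of all genes, 26.1% changed in the former and 24.3% in the latter in either direction. By direction, 9.15% of all genes rose and 17.0% fell in the former, and 9.04% rose and 15.3% fell in the latter. The median log2 fold change of the 64 was 0.01 and 0.00. Too few reads for a test were found for 14 listed genes, among them the cytokines IL6 (5 counts in 12 libraries), TNF (15) and IL1B (1), and SOD2 was not analysed here.

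Of the other subunits and inhibitors, 5 of 6 rose with serum under DMSO and 4 under dTAG, where 9.15% and 9.04% of all genes rose. The genes named next in this list were chosen after their values were seen. BCL3, a nuclear partner of p50 dimers, rose by log2 1.44 (SE 0.132, adjusted p = 2.21e-09) in DMSO-treated cells, NFKBID by 1.31, the subunit REL by 1.26, NFKBIB by 0.31 and RELA by 0.26. The remaining gene, NFKBIE, which encodes IkappaB-epsilon, had log2 values of -0.26 under DMSO (adjusted p = 0.0590) and -0.20 under dTAG (adjusted p = 0.131) and did not pass the test. After dTAG the values were 1.25, 0.84 and 0.99 for BCL3, NFKBID and REL. The REL mean went from 21.5 to 50.2 CPM in DMSO-treated cells and from 24.4 to 49.4 CPM in dTAG-treated cells.

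The kinases, receptors and ligases act upstream of the subunits. Of 11 kinases, 2 rose and 2 fell in DMSO-treated cells, and 2 rose and 3 fell in dTAG-treated cells. Over all genes, 9.15% rose and 17.0% fell under DMSO, and 9.04% rose and 15.3% fell under dTAG. The same shares apply to the receptors and ligases below. MAP3K14, which encodes NIK, rose from a mean of 48.9 to 180.8 CPM in DMSO-treated cells (log2 1.87, SE 0.0831, adjusted p = 4.39e-16) and by log2 1.75 in dTAG-treated cells. MAP3K8, the kinase bound by p105, rose by log2 1.91 and 1.56. Of 20 receptors and adaptors tested, 3 rose and 4 fell in DMSO-treated cells, and 4 rose and 4 fell in dTAG-treated cells. TNFRSF1B, the TNF receptor that signals through TRAF2, rose by log2 2.65 (SE 0.456, adjusted p = 8.02e-05) from a mean of only 0.149 CPM, and by 0.90 after dTAG (adjusted p = 0.0463). Of 11 ubiquitin ligases and deubiquitinases, 0 rose in either treatment, 2 fell in DMSO-treated cells (RBCK1 and OTUD7B, both named after their values were seen) and 1 (RBCK1) in dTAG-treated cells.

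Downstream, 9 of 16 tested target genes rose and 1 fell in DMSO-treated cells, and 8 rose and 2 fell in dTAG-treated cells. Of all genes, 9.15% rose and 17.0% fell in the former, and 9.04% rose and 15.3% fell in the latter. PTGS2, the inducible cyclooxygenase, rose by log2 4.14 and 3.33 in DMSO- and dTAG-treated cells. GADD45B, a stress sensor, rose by 3.17 and 2.53, and the chemokine gene CXCL2 by 2.59 and 2.09. PLAU, which encodes urokinase, rose by 2.31 and 1.95, and IER3, a survival gene, by 1.61 and 1.51. CXCL1 rose in DMSO-treated cells by 0.93 (adjusted p = 0.0287). BIRC3 and ICAM1, also textbook targets of the pathway, had serum values of 0.09 and -0.17 in DMSO-treated cells, so targets moved unequally.

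The pathway list, too, was drawn up with earlier results of these libraries known. The differences between dTAG and DMSO for its genes and their interaction, adjusted p values included, are therefore a description. Nothing is read from their counts. Between dTAG and DMSO without serum, 4 of the 64 pathway genes were higher and 0 lower, where 1.28% of all genes were called. These were CXCL8 (log2 1.69, adjusted p = 3.01e-08), CXCL1 (1.27, adjusted p = 0.0207), TRAF1 (0.78, SE 0.173, adjusted p = 0.0166) and PLAU (0.49, adjusted p = 0.0159). TRAF1 encodes an adaptor that binds the BIRC2 and BIRC3 ligases, and its mean went from 2.74 to 4.78 CPM. The CXCL1 mean went from only 0.684 to 1.70 CPM. With serum 0 were higher and 2 lower, where 1.21% of all genes were called: PTGS2 (-0.80, adjusted p = 0.00294) and the adaptor BCL10 (-0.31, adjusted p = 0.00657, named after its values were seen). TRAF1 with serum differed by 0.61 (adjusted p = 0.103). The interaction was called for 1 of the 64, CXCL8, where 0.0382% of all genes were called. Its serum change was log2 3.74 under DMSO and 1.98 under dTAG. The comparisons without serum share the DMSO-S0 and dTAG-S0 libraries with the serum comparisons.

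**Figure D5:**
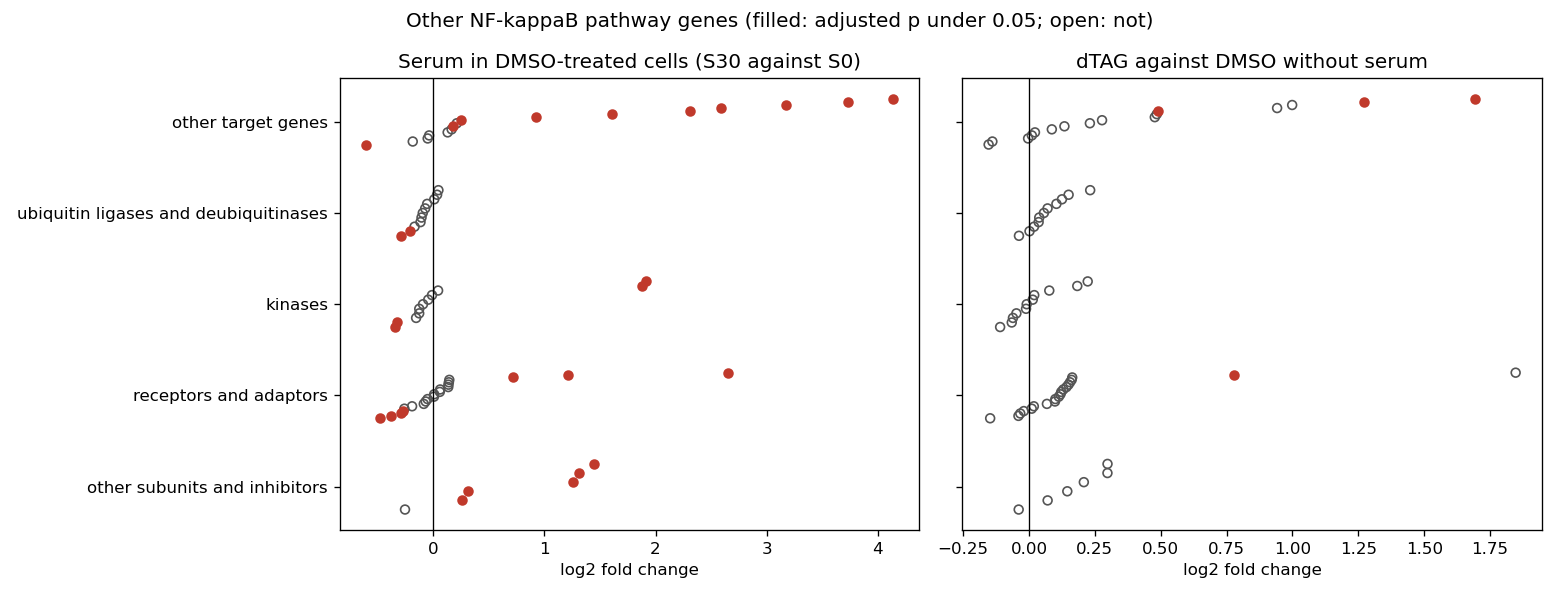
Log2 fold change (horizontal axes) of the 64 tested pathway genes that are not among the 10, by role; the left panel gives S30 against S0 under DMSO and the right panel dTAG-S0 against DMSO-S0, with filled points at an adjusted p under 0.05. With serum, 19 filled points lie above 0 and 9 below, and without serum 4 filled points lie above 0 for dTAG.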

How the data were processed

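Total RNA depleted of ribosomal RNA, with ERCC spike-in RNA added, was sequenced from the 12 libraries. The authors trimmed the reads (Trim Galore 0.6.4), mapped them to hg38 and counted them over whole genes with featureCounts (Subread 1.6.3). As deposited, the table holds whole-number counts of reads for each gene, introns included and not normalized. Unspliced RNA therefore adds to each value, and more so in long genes. How reads from overlapping genes or several places were treated is not given in the sources used here. The 20537682 to 26278707 counts per library limit the precision of low genes, and intervals cover the spread between libraries and counting error only.

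Each column was matched to its sample by name, and 0 columns were left unused. The table held 19901 genes, 19802 of them with a symbol. A minimum of 10 counts in 6 or more libraries, taken from the study's methods, left 13093 genes to test. Counts were scaled by the upper quartile, and the RUVg algorithm gave 1 factor of unwanted variation from 69 spike-in transcripts; the number of factors is not given in the sources used here. All 4 groups were fitted together in edgeR 4.0.16 (R 4.3.3) with the two-sided quasi-likelihood F-test, with Benjamini-Hochberg adjustment across the 13093 genes and calls at an adjusted p under 0.05. Normalised CPM were computed by edgeR from the upper quartile-scaled library sizes, and correlations were taken on log2 CPM (prior count 2). The fit was tested on simulated counts.

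The members and lists were chosen with earlier results of these data known. All 10 members were named, together with, in each comparison, up to 8 other pathway genes with the largest change of at least 1.5-fold among those called, and the 5 genes most like BIRC3. Start positions are counted from 0 in the table and given here from 1. Promoters were taken from RefSeq (GRCh38.p14) and overlapping genes from GENCODE v44, which may not be the authors' annotation. The alternatives were TMM scaling, 0 or 2 spike-in factors, spike-in library sizes, DESeq2 1.42.0, the likelihood ratio test, no count filter, only the 6 libraries compared, the replicate number as a block, and leaving out each library. A listed blood marker is not reported here.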

Additional observations from a re-analysis of the deposited data

Results flagged for a closer look

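Of the pathway genes, CXCL8 differed between the treatments in its change with serum. The interaction was log2 -1.75 (SE 0.174, edgeR quasi-likelihood test, adjusted p = 3.15e-06). Mean levels were 2.83 and 35.5 CPM without and with serum in DMSO-treated cells and 8.77 and 36.1 CPM in dTAG-treated cells. The interaction equals the dTAG difference with serum (-0.06) less that without serum (1.69). Because the pathway list was drawn up with earlier results known, this value and its adjusted p are a description. No member of the 10 showed such a difference by the same test.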

How the results depend on the processing

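The difference of BIRC3 between dTAG and DMSO, a description because it chose the gene, was log2 1.25 to 1.42 without serum and 1.13 to 1.36 with serum when a library was left out. RELB, NFKBIZ, NFKB2 and TNFAIP3 stayed called for serum in both treatments. The count of 10 members differing with serum present (2) became 5 under TMM scaling, without the spike-in factor and in the likelihood ratio test. It became 6 without the count filter, 1 with spike-in library sizes, and 1 to 4 without single libraries. The share of all genes called moved too, from 1.21% to 1.77%, 1.67%, 2.03%, 2.29% and 0.504% in these settings in turn. Without single libraries it was 0.728% to 1.97%. Without serum the count (4) became 1 with spike-in library sizes and 1 to 5 without single libraries. The share of all genes called went from 1.28% to 0.58% and to 0.851% to 2.29% in the same fits. Of the pathway genes, the interaction (1) became 2 under TMM scaling, without the factor, with 2 factors, in DESeq2, in the likelihood ratio test and with the replicate block. It became 4 without the count filter, and 1 to 2 without single libraries. Of all genes, 0.0382% had this call in the main fit, 0.0535% to 0.164% in these settings and 0.0383% to 0.107% without single libraries. With serum present (2) the pathway count became 1 with spike-in sizes, 4 in the likelihood ratio test, 6 without the filter and 1 to 3 without single libraries, and without serum (4) it became 2 to 4 without single libraries. The cause of these moves was not tested.

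Values near 0 that passed no test changed sign. Log2 values of TNFAIP2 with serum in DMSO-treated cells were 0.078 (TMM), 0.0058 (no factor), 0.076 (spike-in sizes), 0.062 (DESeq2), 0.023 (no filter) and 0.0086 (6 libraries). For serum after dTAG, BIRC2 gave 0.075 (TMM), 0.013 (no factor), 0.019 (2 factors), 0.047 (spike-in sizes), 0.052 (DESeq2), 0.041 (no filter) and 0.026 (6 libraries), BIRC3 0.057 (TMM), 0.033 (spike-in sizes), 0.036 (DESeq2) and 0.056 (no filter), and ICAM1 0.00093 (TMM), 0.0027 (DESeq2) and 0.024 (no filter). BIRC2 between dTAG and DMSO with serum gave 0.014 (TMM), 0.018 (no factor), 0.019 (spike-in sizes), 0.0080 (no filter) and 0.0019 (6 libraries). Leaving out single libraries, sign changes spanned -0.026 to 0.20 (BIRC3), -0.30 to 0.057 (ICAM1) and -0.13 to 0.070 (TNFAIP2) for serum in DMSO-treated cells. For serum after dTAG they spanned -0.025 to 0.099 (NFKBIA), -0.072 to 0.11 (BIRC3), -0.042 to 0.076 (BIRC2) and -0.21 to 0.066 (ICAM1). For the interaction they spanned -0.11 to 0.0094 (NFKB1), -0.14 to 0.050 (NFKB2), -0.13 to 0.00083 (NFKBIA), -0.12 to 0.11 (TNFAIP3), -0.23 to 0.016 (BIRC3) and -0.13 to 0.24 (ICAM1), and for dTAG with serum -0.037 to 0.13 (NFKBIZ) and -0.042 to 0.029 (BIRC2). Over the member values and these alternatives, single libraries aside, 388 kept direction and call, 22 gained the call, 5 lost it and 25 changed sign. When single libraries were left out, 520 kept both, 16 gained the call, 15 lost it and 49 changed sign. TNFAIP2 against DMSO with serum lost it without replicate 1 or 2 of DMSO-S30 or of dTAG-S30. NFKBIA against DMSO without serum lost it without DMSO-S0 replicate 1 or 2 or dTAG-S0 replicate 1 or 3.

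Calls over all genes moved by more than 1.5 times with spike-in sizes (serum in DMSO-treated cells 3420 to 1766, serum after dTAG 3184 to 1646, dTAG without serum 168 to 76, with serum 159 to 66), in the likelihood ratio test (168 to 283, 159 to 266) and without the filter (168 to 275, 159 to 406). The interaction count of 5 became 3 with spike-in sizes, 9 with 2 factors, 10 in the likelihood ratio test, 11 in DESeq2 and 29 without the filter, and up to 14 without single libraries (dTAG-S30 replicate 3). Single libraries moved dTAG without serum to 111 (without dTAG-S0 replicate 3), 282 (DMSO-S30 replicate 1), 291 (dTAG-S0 replicate 2) and 299 (dTAG-S30 replicate 3), and dTAG with serum to 95 and 96 (DMSO-S30 replicates 2 and 3), 244 and 258 (DMSO-S0 replicates 2 and 1) and 245 (dTAG-S30 replicate 1). Replicate numbers did not pair the libraries: 1 of 18 same-numbered pairs had a correlation of deviations over 0.1, and 5 of 12 libraries correlated best with their own number. With the replicate block 3500, 3247, 7, 173 and 166 genes were called (serum in DMSO- and dTAG-treated cells, interaction, dTAG without and with serum), and NFKB2 without serum was gained (adjusted p = 0.0355). Low counts limit ICAM1, and 3 libraries a group limit small differences.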
